A study of Mus musculus with 16 samples.

Results

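The genes described here are the 10 chondroitin sulfate synthesis and sulfation enzymes *Csgalnact1*, *Csgalnact2*, *Chsy1*, *Chsy3*, *Chpf*, *Chst11*, *Chst12*, *Chst3*, *Chst15* and *Ust*. They were taken by gene symbol from the 37583 genes of the deposited tables. RNA was sequenced from the cortex and the cerebellum of 4 wild-type and 4 A391T mice, which gives 16 libraries with 4 in each group. All mice were C57BL/6J. The A391T mice carry a mutant *Slc39a8*, the gene of a metal ion transporter, with a genotype that the labels also write as A393T. The zygosity, sex and age of the A391T mice are not given in the sources used here, whereas the study describes its sequenced wild-type mice as male and 12 weeks old. The study separated the regions by blunt dissection and took frontal cortex as its cortex. For RNA it used the hemisphere opposite to that of its glycan samples. Each library thus holds RNA of all cell types of a region.

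Chondroitin sulfate is a linear chain of alternating N-acetylgalactosamine and glucuronic acid that is built on core proteins in the Golgi apparatus. *Csgalnact1* and *Csgalnact2* encode the transferases that add the first N-acetylgalactosamine to the linkage region, and *Chsy1*, *Chsy3* and *Chpf* encode the enzymes that polymerise the chain. *Chst11* and *Chst12* encode 4-O-sulfotransferases and *Chst3* a 6-O-sulfotransferase of N-acetylgalactosamine, *Chst15* encodes the enzyme that adds a further sulfate to the 4-O-sulfated sugar, and *Ust* the 2-O-sulfotransferase of the uronic acid. In brain, chondroitin sulfate proteoglycans fill the extracellular matrix and form perineuronal nets around neurons.

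Libraries held from 20813432 to 30497206 counts on genes, with a median of 24488842. Granule cell markers followed the region labels in all 16 libraries. The 5 granule cell markers (*Gabra6*, *Neurod1*, *Zic1*, *Cbln3*, *Fat2*) summed to between 16.5 and 31.0 TPM (counts per base of gene length, with an equal sum over genes in every library) in cortex and to between 2162 and 2834 TPM in cerebellum. A391T cerebellum mouse 1 stood apart from the other cerebellum libraries. Its counts differed from those of the other A391T cerebellum libraries by a chi-square per degree of freedom of 62.3 to 74.5, against 7.23 to 8.13 among those 3. The 5 inhibitory interneuron markers summed to 4906 TPM there and to between 1961 and 2333 TPM in the other 7 cerebellum libraries, a sum carried by *Pvalb* at 4418 TPM against 1545 to 1871 TPM. Of the other 4, *Gad1* was above (376 TPM against 290.2 to 324 TPM) and *Gad2* below the other libraries (91.6 TPM against 102 to 118 TPM), and *Sst* and *Vip* lay within their range. By chi-square per degree of freedom, wild-type cortex mouse 4 differed from its group by 15.1 to 34.4, against 5.10 to 12.0 among the others. For 4 mice, and so 8 libraries, the RPKM table carries the other genotype in its column names than the count files do. The names of the count files, which are those of the labels, were used.

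RefSeq promoter windows of the GRCm38.p6 assembly, from 250 bases before to 50 bases after a start site, were at hand for 8 of the 10 genes in 10 windows. *Csgalnact1* and *Chsy3* had no entry. The windows of *Ust* and *Csgalnact2* are shown because these are the genes of the family that were higher in cerebellum by the adjusted p in both genotypes. For *Csgalnact2* the difference was less than 2-fold. All 3 windows lie on the minus strand, and capitals mark GGGCGG or its reverse complement. They span chr10:8518776-8519075 for *Ust*, and chr6:118139091-118139390 and chr6:118138781-118139080 for the first and the other start of *Csgalnact2*.
Ust: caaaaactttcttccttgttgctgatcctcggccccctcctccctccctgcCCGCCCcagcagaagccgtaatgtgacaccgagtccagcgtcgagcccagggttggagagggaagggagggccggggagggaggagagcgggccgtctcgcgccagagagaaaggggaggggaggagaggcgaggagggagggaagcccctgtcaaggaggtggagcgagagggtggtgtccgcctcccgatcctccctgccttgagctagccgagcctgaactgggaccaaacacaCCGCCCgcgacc
Csgalnact2 first start: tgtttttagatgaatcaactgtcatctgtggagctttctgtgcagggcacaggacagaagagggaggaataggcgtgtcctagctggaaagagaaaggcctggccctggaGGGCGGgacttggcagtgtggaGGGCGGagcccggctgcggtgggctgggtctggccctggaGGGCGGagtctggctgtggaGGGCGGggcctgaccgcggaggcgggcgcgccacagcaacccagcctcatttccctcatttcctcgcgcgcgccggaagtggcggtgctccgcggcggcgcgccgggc
Csgalnact2 other start: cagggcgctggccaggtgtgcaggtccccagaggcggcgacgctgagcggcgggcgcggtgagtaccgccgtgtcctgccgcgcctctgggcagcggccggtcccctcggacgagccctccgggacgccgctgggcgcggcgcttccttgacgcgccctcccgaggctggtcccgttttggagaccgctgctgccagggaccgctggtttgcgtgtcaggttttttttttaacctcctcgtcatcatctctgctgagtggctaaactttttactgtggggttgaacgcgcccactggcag
GGGCGG, the core of the GC box, was found on either strand in 9 of the 10 windows of the family, against 35.7% of 32851 promoter windows of the same length. It occurred 2 times in the window of *Ust*, 4 times in the first window of *Csgalnact2* and 0 times in the other. TATAAA was in 0 of the 10 windows and in 13.6% of all windows, and CAGCTG, which reads the same on both strands, in 2 of the 10 (*Chsy1* and *Chst11*) and in 16.3% of all. The windows of the family held from 15 to 34 CG pairs, against a median of 7 over all windows. The 2 windows of *Chst15* overlap. These matches describe the letters of the windows and no binding was measured.

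Positions are those of the Ensembl genes in NCBIM37 (mm9), the assembly to which the authors mapped. *Csgalnact1* (ENSMUSG00000036356) lies at chr8:70880680-71259045 and *Csgalnact2* (ENSMUSG00000042042) at chr6:118057470-118089158, both on the minus strand. *Chsy1* (ENSMUSG00000032640) lies at chr7:73254401-73318675 and *Chsy3* (ENSMUSG00000058152) at chr18:59335055-59570100, both on the plus strand, and *Chpf* (ENSMUSG00000032997) at chr1:75471144-75476046 on the minus strand. *Chst11* (ENSMUSG00000034612) lies at chr10:82448243-82658645 and *Chst12* (ENSMUSG00000036599) at chr5:140981504-141001678, both on the plus strand. *Chst3* (ENSMUSG00000057337) lies at chr10:59644280-59682008, *Chst15* (ENSMUSG00000030930) at chr7:139427463-139508911 and *Ust* (ENSMUSG00000047712) at chr10:7924551-8238623, all on the minus strand. Exons of 8 of the 10 genes overlap no other gene. Of the exonic bases of *Chsy1*, 48.9% also lie in exons of *Gm17504* on the other strand, a gene with 0 counts in every library. Since counting ignored the strand, reads of the pair cannot be told apart, and reads over shared bases may have been set aside as ambiguous, the default of HTSeq. Per base of the exons that *Chsy1* shares with no other gene, its mean level in wild-type mice would be 11.0 TPM in cortex and 13.0 TPM in cerebellum, in place of 5.55 and 6.58 TPM, with the same fold change between regions. *Chpf* shares 1.54% of its exonic bases with *Obsl1* on the same strand.

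In wild-type cortex, levels per gene length ran from 1.12 ± 0.249 TPM for *Chst3* to 104 ± 3.18 TPM for *Chpf* (SD, n = 4). The order from the top was *Chpf*, *Chst12*, *Chst11*, *Chst15*, *Chsy3*, *Ust*, *Csgalnact1*, *Csgalnact2*, *Chsy1* and *Chst3*. The values of the libraries overlapped between *Chst11* and *Chst15* and between *Ust* and *Csgalnact1*, and between no other neighbours. In wild-type cerebellum *Ust* stood first at 97.1 ± 5.74 TPM, with an overlap with *Chpf* at 92.6 ± 7.14 TPM, and *Chsy3* last at 0.877 ± 0.491 TPM, with an overlap with *Chst3* at 1.17 ± 0.169 TPM. The other overlaps between neighbours there were *Chst11* with *Chst15* and *Chsy1* with *Csgalnact1*. The place of a gene in this order depends on the length assigned to it. With exon lengths of the NCBIM37 annotation, *Chst12* in wild-type cortex moved from 56.7 to 37.5 TPM, below *Chst11* at 40.1 TPM, and *Chst3* from 1.12 to 2.04 TPM. With these lengths *Csgalnact1* moved from 15.9 to 18.3 TPM, above *Ust*, *Chsy3* from 24.1 to 18.9 TPM and *Chpf* from 104 to 119 TPM. The summed level of the 10 genes was 309.7 ± 16.3 TPM in wild-type cortex, 333 ± 4.13 TPM in wild-type cerebellum, 303 ± 10.8 TPM in A391T cortex and 316 ± 25.1 TPM in A391T cerebellum (SD, n = 4 each).

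**Figure D1:**
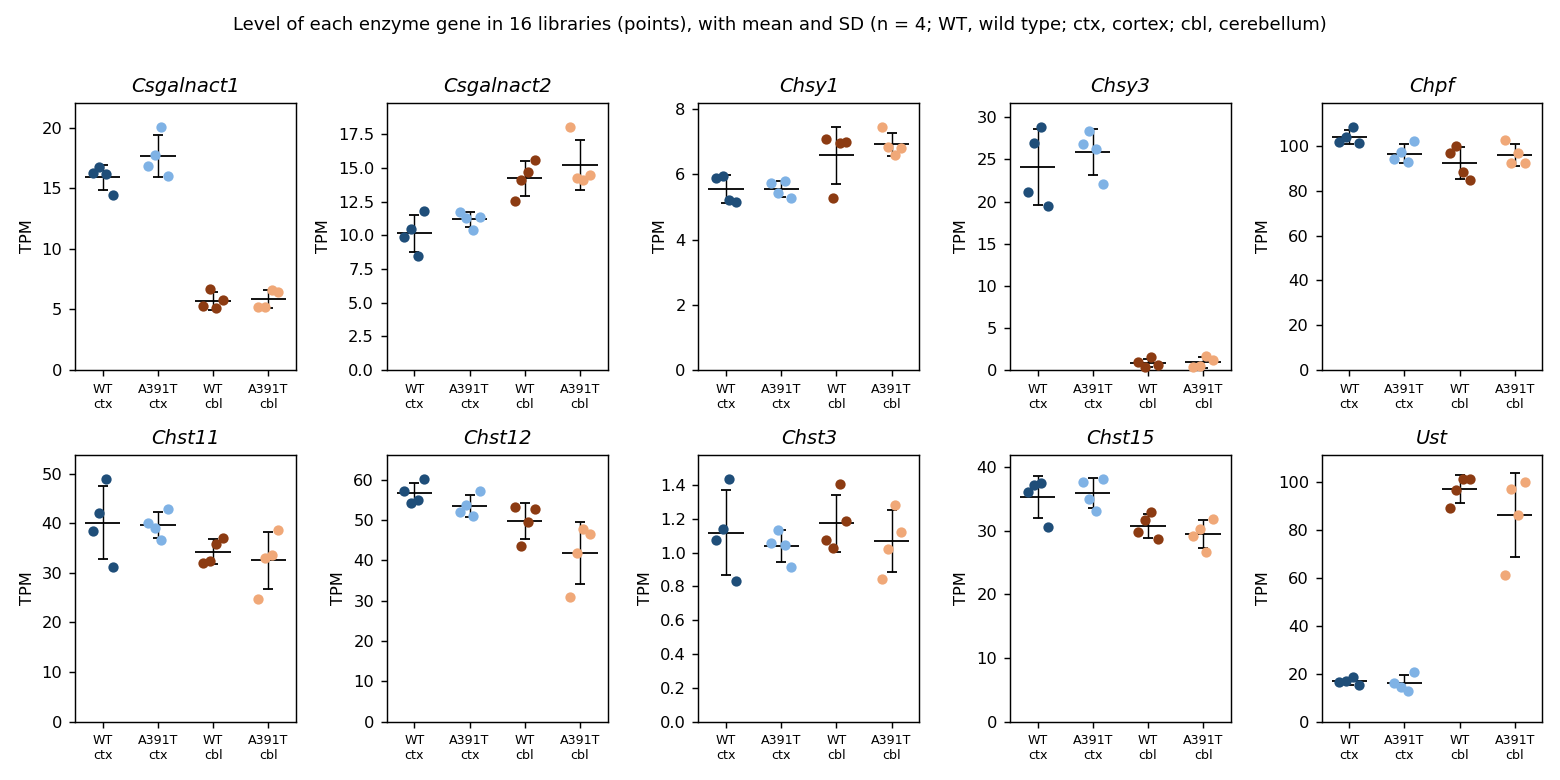
Level in TPM (vertical axes, linear, starting at 0) of each enzyme gene in wild-type (WT) and A391T cortex and cerebellum. Points are the 4 libraries of a group, long lines the mean and bars the SD. All 8 cerebellum points of *Ust* lie above all 8 cortex points, and those of *Csgalnact1* and *Chsy3* below them.

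Between cortex and cerebellum of wild-type mice, 3 of the 10 genes differed by at least 2-fold. *Ust* was higher in cerebellum, and *Csgalnact1* and *Chsy3* were higher in cortex. Among the other genes the largest difference was 1.30-fold, for *Chst11*. Calls needed both an adjusted p under 0.05, from the quasi-likelihood test of edgeR, and a change of at least 2-fold. Of 16040 genes tested, 10.5% were called higher in cerebellum and 14.2% higher in cortex. By the adjusted p alone, 2 of the 10 genes were higher in cerebellum, where 34.7% of all genes were, and 6 were higher in cortex, where 33.1% were. All 10 genes passed the filter on low counts. The median log2 fold change, cerebellum over cortex, was -0.33 over the 10 genes and 0.02 over all genes tested. In bulk tissue, fewer cells of a type and less RNA per cell cannot be told apart.

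*Ust*, the 2-O-sulfotransferase, had the largest difference toward cerebellum. Its level was 16.4, 16.8, 18.6 and 15.4 TPM in wild-type cortex mice 1 to 4, and 89.1, 96.9, 101 and 101 TPM in wild-type cerebellum. In A391T mice 1 to 4 it was 16.3, 14.7, 12.8 and 20.6 TPM in cortex and 61.4, 96.99, 86.3 and 100.02 TPM in cerebellum. Cortex and cerebellum did not overlap in either genotype, and the lowest cerebellum value was that of the A391T mouse whose library stood apart. The granule cell markers of that library also had the lowest sum of the cerebellum libraries (2162 TPM against 2531 to 2834 TPM), as had its astrocyte (1353 TPM against 1477 to 1701 TPM) and microglia markers (121 TPM against 131 to 165 TPM). Its endothelial sum (292 TPM against 196 to 241 TPM) and its striatum marker sum (311 TPM against 249.97 to 288 TPM) were above those of the other cerebellum libraries. Single markers of 3 of these lists went both ways. In that library 1 of 4 endothelial markers was the highest of the cerebellum libraries and 2 were the lowest. Of 6 striatum markers 2 were highest and 2 lowest, and of 5 astrocyte markers 1 was highest and 3 lowest. Of 5 granule cell markers 4 were lowest, and of 5 microglia markers 3, with 0 highest in both lists. The part of these cell types in the *Ust* value was not tested. The log2 fold change was 2.38 in wild-type mice (SE 0.07, adjusted p = 1.69e-10), or 5.20-fold, and 2.30 in A391T mice (SE 0.17, adjusted p = 1.36e-06), or 4.94-fold. Without A391T cerebellum mouse 1 the latter was 2.41.

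*Chsy3*, a chondroitin synthase, had the largest difference of the family. It was at 21.2, 27.0, 28.8 and 19.5 TPM in the 4 wild-type cortex libraries and at 0.997, 0.386, 1.51 and 0.618 TPM in wild-type cerebellum. A391T cortex held 26.8, 28.4, 26.3 and 22.04 TPM, and A391T cerebellum 0.325, 0.455, 1.71 and 1.20 TPM. Every cortex library was above every cerebellum library. The cerebellum values rest on 6 to 25 counts per library, and their SD was 55.9% of the mean in wild-type and 70.7% in A391T mice. The log2 fold change was -4.92 in wild-type mice (SE 0.26, adjusted p = 2.05e-08) and -4.95 in A391T mice (SE 0.31, adjusted p = 4.07e-07). Under the naming of the RPKM table these were -4.40 and -5.69, and with only the mice of matching name -4.65 and -6.19, all past both criteria.

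*Csgalnact1*, which starts the chain, was at 16.3, 16.7, 16.1 and 14.4 TPM in wild-type cortex and at 5.25, 6.72, 5.13 and 5.74 TPM in wild-type cerebellum. In A391T mice the levels were 16.9, 17.7, 20.01 and 16.0 TPM in cortex and 5.18, 5.19, 6.57 and 6.44 TPM in cerebellum. No cerebellum library reached the cortex range in either genotype. The log2 fold change was -1.63 in wild-type mice (SE 0.10, adjusted p = 8.57e-08), or 3.09-fold higher in cortex, and -1.70 in A391T mice (SE 0.10, adjusted p = 3.09e-07), or 3.24-fold. *Csgalnact2*, the other gene of the same step, went the other way by a smaller amount. Its level ran from 8.47 to 11.8 TPM over the cortex libraries and from 12.5 to 18.01 TPM over the cerebellum libraries, without overlap. The log2 fold change was 0.33 in wild-type mice (SE 0.11, adjusted p = 0.0175) and 0.35 in A391T mice (SE 0.12, adjusted p = 0.0274). The adjusted p was no longer under 0.05 without wild-type cerebellum mouse 3 (log2 fold change 0.31, adjusted p = 0.0525) or mouse 4 (0.30, adjusted p = 0.0516), or without any A391T cortex mouse (0.31 to 0.37, adjusted p from 0.0510 to 0.0838). Without A391T cerebellum mouse 1, where *Csgalnact2* was highest, the A391T difference was 0.22 and past the test (adjusted p = 0.00985).

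*Chpf* and *Chsy1* differed by less than 2-fold between the regions. *Chpf*, the chondroitin polymerising factor and the most abundant of the family in cortex, ran from 101 to 108 TPM in wild-type cortex and from 84.7 to 100.01 TPM in wild-type cerebellum, with a log2 fold change of -0.32 (SE 0.07, adjusted p = 0.00183). In A391T mice it ran from 93.0 to 102 TPM in cortex and from 92.4 to 103 TPM in cerebellum, with a log2 fold change of -0.11 (SE 0.08, adjusted p = 0.260), which became -0.18 (adjusted p = 0.00672) without A391T cerebellum mouse 1. *Chsy1*, the paralogue of *Chsy3*, ran from 5.15 to 5.96 TPM over all cortex libraries and from 5.27 to 7.44 TPM over all cerebellum libraries. Its log2 fold change after TMM normalization was 0.09 in wild-type mice (SE 0.12, adjusted p = 0.520) and 0.22 in A391T mice (SE 0.10, adjusted p = 0.0799). With library totals in place of TMM, a scaling that moved the median of all genes in the A391T comparison from 0.03 to 0.16, the A391T value was 0.35 (adjusted p = 0.00883).

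Of the 4 sulfotransferases of N-acetylgalactosamine among the 10 genes, *Chst11*, *Chst12* and *Chst15* were higher in cortex by the adjusted p in both genotypes, at less than 2-fold. *Chst11* ran from 31.2 to 48.9 TPM in cortex and from 24.7 to 38.7 TPM in cerebellum, with log2 fold changes of -0.38 in wild-type mice (SE 0.11, adjusted p = 0.00953) and -0.40 in A391T mice (SE 0.11, adjusted p = 0.00781). *Chst12* ran from 51.1 to 60.2 TPM in cortex and from 30.9 to 53.2 TPM in cerebellum, with log2 fold changes of -0.34 (SE 0.08, adjusted p = 0.00286) and -0.47 (SE 0.11, adjusted p = 0.00404). *Chst15* ran from 30.5 to 38.1 TPM in cortex and from 26.7 to 32.96 TPM in cerebellum, with log2 fold changes of -0.35 (SE 0.08, adjusted p = 0.00173) and -0.39 (SE 0.08, adjusted p = 0.00225). Values of each of the 3 genes overlapped between the regions over all 16 libraries. Within a genotype, *Chst12* did not overlap in wild-type or A391T mice, *Chst15* overlapped in wild-type mice alone and *Chst11* in both. *Chst3*, the 6-O-sulfotransferase, ran from 0.830 to 1.43 TPM in cortex and from 0.842 to 1.40 TPM in cerebellum, on 59 to 110 counts per library. Its log2 fold change was -0.08 in wild-type mice (SE 0.17, adjusted p = 0.668) and -0.07 in A391T mice (SE 0.13, adjusted p = 0.677).

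**Figure D2:**
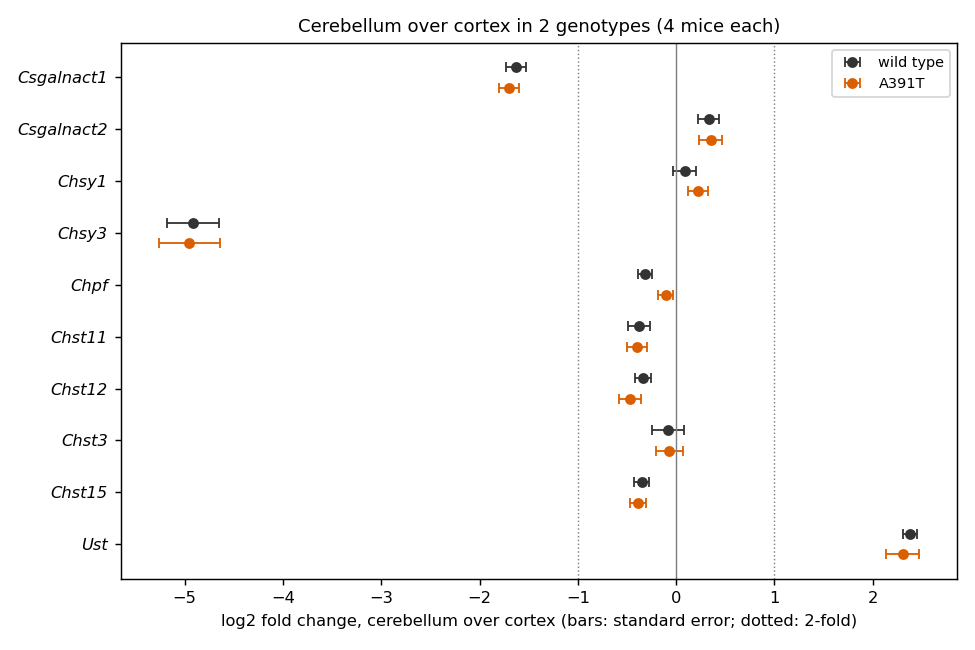
Log2 fold change, cerebellum over cortex (horizontal axis), of each enzyme gene in wild-type (dark) and A391T (orange) mice, 4 of each, from edgeR. Bars are standard errors and dotted lines mark a 2-fold change. *Ust* lies at 2.38 and 2.30, *Csgalnact1* at -1.63 and -1.70, *Chsy3* at -4.92 and -4.95, and the other 7 genes lie between the dotted lines.

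The A391T mice gave the comparison a set of animals that shares no library with the wild-type mice. Both criteria called *Ust*, *Csgalnact1* and *Chsy3*, in the same directions, against 9.8% of 16005 genes higher in cerebellum and 14.9% higher in cortex. By the adjusted p alone, 2 of the 10 genes were higher in cerebellum (31.6% of all genes) and 5 higher in cortex (31.3%). *Chpf* was past the adjusted p in wild-type mice and not in A391T mice. The median log2 fold change was -0.25 over the 10 genes and 0.03 over all genes tested.

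Markers of several cell types other than granule cells also differed between the regions. The 5 astrocyte markers summed to between 823 and 1004 TPM in cortex and between 1353 and 1701 TPM in cerebellum, with 3 of 5 higher in every cerebellum library. The 4 oligodendrocyte precursor markers summed to between 75.8 and 99.4 TPM in cortex and between 34.9 and 41.7 TPM in cerebellum, and the 5 microglia markers to between 400 and 479 TPM and between 121 and 165 TPM, with all 4 and all 5 higher in every cortex library. None of these was at 0 in any library. The oligodendrocyte markers overlapped between the regions (3489 to 4097 TPM in cortex, 3284 to 5148 TPM in cerebellum, 0 of 5 apart), as did the endothelial markers (229 to 309 TPM and 196 to 292 TPM, 1 of 4 higher in every cortex library). Of the 5 interneuron markers, 2 were higher in every cortex and 2 in every cerebellum library. The 5 Purkinje cell markers summed to between 415 and 548 TPM in cortex and between 4692 and 5423 TPM in cerebellum, with all 5 higher in every cerebellum library. The part of these cell types in the differences of the enzyme genes was not tested.

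Markers of choroid plexus and striatum varied between libraries of a region. Of the 5 choroid plexus markers, 2 were higher in every cerebellum library, and of the 6 striatum markers, 4 were higher in every cortex library. The 5 choroid plexus markers summed to between 8.64 and 49.7 TPM in cortex and between 42.9 and 8081 TPM in cerebellum, where wild-type mouse 3 with 44.1 TPM and A391T mouse 4 with 42.9 TPM were lowest. *Ust* was at 101 and 100.02 TPM in this pair of libraries, and its log2 fold change without them was 2.35 in wild-type and 2.24 in A391T mice. That of *Csgalnact1* was -1.59 and -1.73, and that of *Chsy3* -5.32 and -5.10. The 6 striatum markers summed to 265 TPM in A391T cortex mouse 3 and to between 594 and 907 TPM in the other 7 cortex libraries. *Ust* was lowest among cortex libraries in that mouse, and its A391T log2 fold change without that library was 2.20. The part of the dissection in these marker sums and in the values of the enzyme genes was not tested.

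Within a library, the ratio of a pair of genes depends on neither library size nor normalization, but on the lengths assigned to the genes, which leave the difference between regions on the log2 scale as it is. The TPM ratio of *Chsy3* to *Chsy1* was 3.59, 4.53, 5.52 and 3.78 in the wild-type cortex libraries and 0.141, 0.0731, 0.217 and 0.0884 in wild-type cerebellum. The ratio thus stood above 1 in every cortex library and below 1 in every cerebellum library. Per unshared exon base of *Chsy1* the means would be 2.20 and 0.0656. The difference on the log2 scale was -5.18 (SE 0.38) in wild-type and -5.43 (SE 0.60) in A391T mice. The ratio of *Csgalnact1* to *Csgalnact2* was 1.65, 1.59, 1.91 and 1.22 in wild-type cortex and 0.419, 0.476, 0.349 and 0.369 in wild-type cerebellum, a log2 difference of -1.97 (SE 0.17), and of -2.03 (SE 0.19) in A391T mice. The ratio of *Ust* to *Chst15*, which act on different sugars of the chain, was 0.477 ± 0.0277 in wild-type cortex and 3.16 ± 0.249 in wild-type cerebellum (SD, n = 4 each), and 0.445 ± 0.0673 and 2.92 ± 0.546 in A391T mice, with log2 differences of 2.73 (SE 0.07) and 2.71 (SE 0.18). The regions did not overlap in these 3 ratios in either genotype. Each of the 6 comparisons gave p = 0.0286 in the two-sided exact permutation test, the smallest that 4 against 4 libraries allow, and 0.0327 after adjustment over all 8 ratio tests. The ratio of *Chst11* to *Chst3*, of 4-O- to 6-O-sulfotransferase, was 36.1 ± 1.55 in wild-type cortex and 29.5 ± 2.78 in wild-type cerebellum (exact permutation p = 0.0286, adjusted p = 0.0327). In A391T mice it was 38.5 ± 5.83 and 30.6 ± 3.57, with overlap (exact permutation p = 0.0571, adjusted p = 0.0571). With the annotation's exon lengths the ratio was 19.8 in wild-type cortex and 16.2 in wild-type cerebellum.

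Shares were taken of the summed TPM of those of the 10 genes that take part in a step, so *Chpf2*, *Chst7* and *Chst14* are not in the sums. *Csgalnact1* held 61.1% ± 4.42 of initiation in wild-type cortex and 28.7% ± 2.85 in wild-type cerebellum (SD, n = 4). *Chsy3* held 17.9% ± 2.37 of the sum with *Chsy1* and *Chpf* in cortex and 0.885% ± 0.507 in cerebellum, and *Chpf* held 77.9% and 92.5%. With the annotation's exon lengths these were 13.1% and 0.612% for *Chsy3*, and 83.0% and 93.5% for *Chpf*. Of the sum of *Chst11*, *Chst12* and *Chst3*, *Chst11* held 40.8% in cortex and 40.2% in cerebellum, and *Chst3* 1.13% and 1.38%, which with the annotation's exon lengths were 50.03% and 49.4%, and 2.54% and 3.08%. Of the sum of *Chst15* and *Ust*, the sulfotransferases of 2 different sugars, *Ust* held 32.3% ± 1.27 in cortex and 75.9% ± 1.37 in cerebellum. In A391T mice the share of *Ust* was 30.7% ± 3.13 in cortex and 74.1% ± 4.19 in cerebellum.

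**Figure D3:**
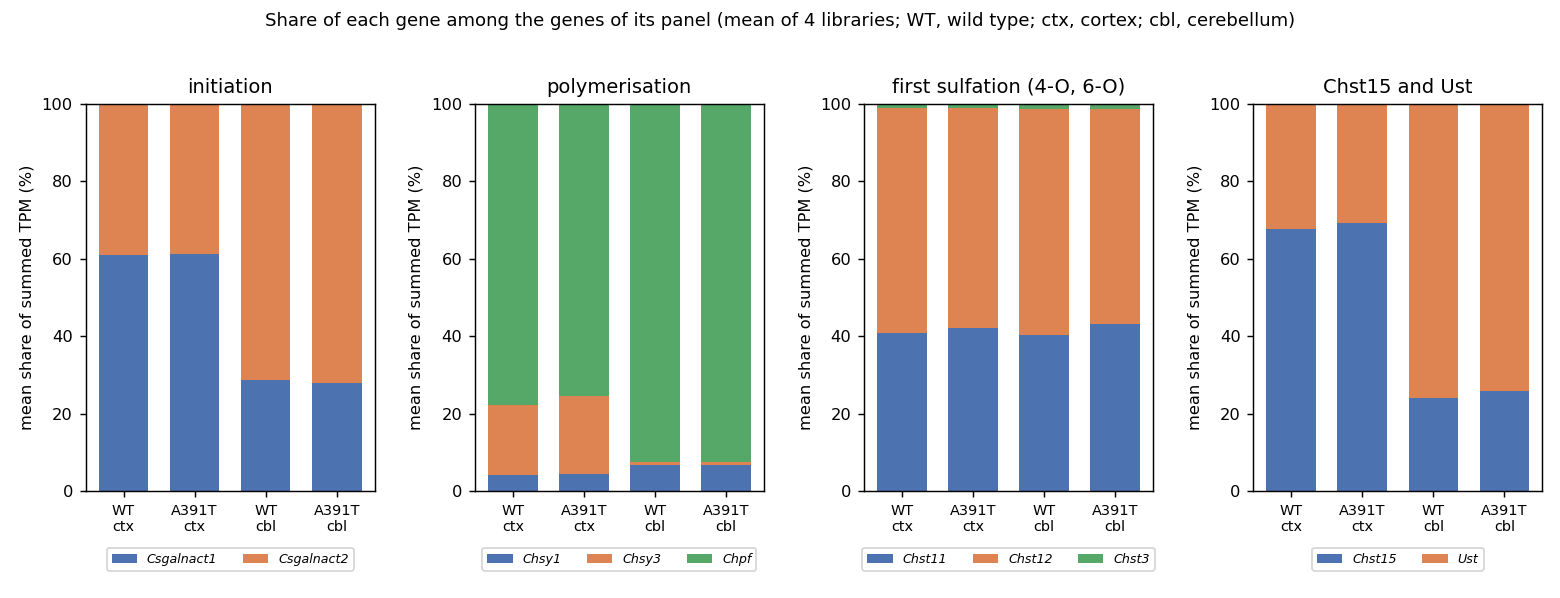
Mean share of each gene in the summed TPM of the genes of its panel (vertical axes, percent) in wild-type (WT) and A391T cortex and cerebellum, 4 libraries each. *Ust* makes up 32.3% of the sum with *Chst15* in wild-type cortex and 75.9% in wild-type cerebellum, whereas the shares of *Chst11* are 40.8% and 40.2%.

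Between A391T and wild-type mice, none of the 10 genes differed in either region by the adjusted p from edgeR. In cortex 0 of the 10 genes passed, against 0.0126% of 15815 genes, which are 2 genes. *Chpf* alone had an unadjusted p under 0.05 there, as 4.73% of all genes did, with 104 ± 3.18 TPM in wild-type and 96.7 ± 4.12 TPM in A391T cortex and a log2 fold change, A391T over wild type, of -0.12 (SE 0.05, adjusted p = 1.00). The log2 fold changes of the others in cortex lay between -0.13 for *Chst3* (SE 0.15) and 0.13 for *Csgalnact1* (SE 0.08). In cerebellum 0 of the 10 genes passed, against 0% of 15668 genes, and 0 had an unadjusted p under 0.05, as 8.55% of all genes did. There the log2 fold changes lay between -0.21 for *Chst12* (SE 0.11, adjusted p = 0.532) and 0.16 for *Csgalnact2* (SE 0.12, adjusted p = 0.583). Without A391T cerebellum mouse 1 these were -0.12 and 0.02. *Chsy3* in cerebellum was the least precise, at 0.08 with an SE of 0.54. Under the naming of the RPKM table this value was -1.18 (adjusted p = 0.549). DESeq2 and the exact test of edgeR also passed 0 of the 10 genes in both regions.

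The region difference was tested for a dependence on genotype with an interaction term over the 16 libraries. None of the 10 genes passed, against 0% of 16589 genes, and 0 had an unadjusted p under 0.05, as 4.85% of all genes did. DESeq2 also passed 0. The largest interaction under the names of the labels was that of *Chpf*, with a log2 value of 0.22 (SE 0.11, adjusted p = 0.769). That of *Ust* was -0.06 (SE 0.18, adjusted p = 0.937). That of *Chsy3* was -0.02 (SE 0.51, adjusted p = 0.994), and -1.28 (adjusted p = 0.501) under the naming of the RPKM table or -1.52 (adjusted p = 0.540) with only the mice of matching name. The region difference of *Chpf*, past the adjusted p in wild-type mice alone, was thus not shown to differ between the genotypes.

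**Figure D4:**
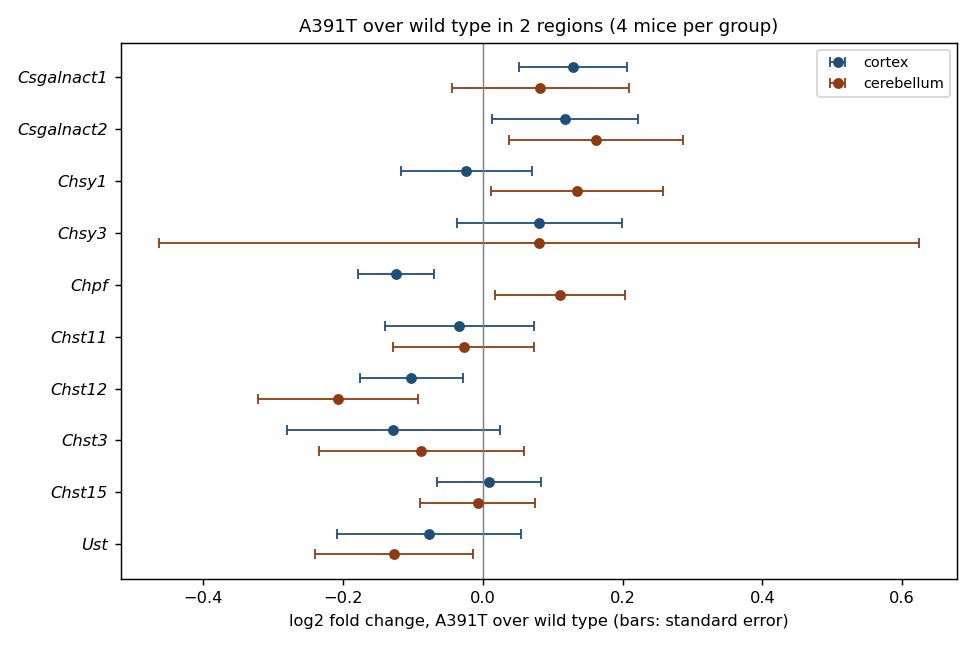
Log2 fold change, A391T over wild type (horizontal axis), of each enzyme gene in cortex (blue) and cerebellum (brown), 4 mice per group, from edgeR, with standard errors as bars. All values lie between -0.21 and 0.16, and the longest bar is that of *Chsy3* in cerebellum.

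Other genes of the pathway were taken from 6 lists, whose counts stand against 34.7% of all genes higher in cerebellum and 33.1% higher in cortex by the adjusted p in wild-type mice. Of the 7 linkage region genes in wild-type mice, 2 were higher in cerebellum and 3 in cortex by the adjusted p. *Acpl2*, the phosphatase of the linkage xylose, had a log2 fold change of 1.86 (SE 0.07, adjusted p = 8.20e-10) and *Xylt1*, a xylosyltransferase that starts the linkage region, of -1.03 (SE 0.29, adjusted p = 0.00777). Of the other chondroitin and dermatan sulfate enzymes, 5 of 6 were tested, 1 was higher in cerebellum and 3 in cortex. *Dsel*, a dermatan sulfate epimerase-like gene, was lower in cerebellum at -1.96 (SE 0.11, adjusted p = 2.46e-08). The other 4 are given although they were not past both criteria, a choice made after their values were seen. *Chpf2*, a further polymerising factor, was at -0.74 (SE 0.10, adjusted p = 7.15e-05) in wild-type and -0.72 (SE 0.10, adjusted p = 0.000126) in A391T mice, and the epimerase gene *Dse* at -0.998 and -0.98 (adjusted p = 5.59e-06 and 6.33e-05). *Chst14*, a 4-O-sulfotransferase of dermatan sulfate, was higher in cerebellum at 0.90 (adjusted p = 3.70e-05) and 0.94 (adjusted p = 0.000505), and the 6-O-sulfotransferase *Chst7* was at 0.15 (adjusted p = 0.435) and 0.59 (adjusted p = 0.0268). Of 10 genes of sulfate and sugar donor supply, 4 were higher in cerebellum and 3 in cortex, and *Papss2*, a synthase of the sulfate donor, was at -1.15 (SE 0.09, adjusted p = 4.49e-07). In A391T mice *Acpl2*, *Xylt1*, *Dsel* and *Papss2* were at 1.68, -1.26, -1.74 and -0.92 in this order, all past the adjusted p, the last of them under 2-fold.

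Of the 5 genes of heparan sulfate chain polymerisation, the chain that shares the linkage region, 1 was higher in cerebellum and 3 in cortex in wild-type mice. *Extl1*, an exostosin-like transferase, was at -2.70 (SE 0.12, adjusted p = 6.57e-09). Of 9 core proteins, 3 were higher in cerebellum and 4 in cortex. The brain proteoglycans *Ncan* (neurocan) at -3.63 (SE 0.12, adjusted p = 4.66e-10) and *Cspg5* (neuroglycan C) at -1.80 (SE 0.07, adjusted p = 1.06e-09) were higher in cortex, and *Dcn* (decorin) at 1.22 (SE 0.12, adjusted p = 3.08e-06) in cerebellum. Of 10 degradation genes 9 were tested, with 3 higher in cerebellum and 5 in cortex. The lysosomal iduronate sulfatase *Ids* was at -1.34 (SE 0.06, adjusted p = 2.94e-09). In A391T mice *Extl1*, *Ncan*, *Cspg5*, *Dcn* and *Ids* were at -2.91, -3.69, -1.65, 1.42 and -1.56, all past both criteria. *Chst13* and *Hyal4* did not pass the filter on low counts. The medians of the 6 lists in wild-type mice were -0.13, -0.74, -0.13, -0.74, -0.39 and -0.23 in the order given, against 0.02 over all genes. In A391T mice they were -0.04, -0.72, 0.07, -0.69, -0.24 and -0.22, against 0.03, so that the median of donor supply lay on the other side there. No lean of a list was tested. In A391T mice the genes higher in cerebellum and in cortex by the adjusted p numbered 2 and 2 for the linkage region, 2 and 3 for the other chondroitin and dermatan sulfate enzymes, and 2 and 1 for donor supply. They numbered 1 and 3 for heparan sulfate polymerisation, 2 and 3 for core proteins, and 0 and 4 for degradation, against 31.6% and 31.3% of all genes. No gene of these lists passed the adjusted p between the genotypes or in the interaction.

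**Figure D5:**
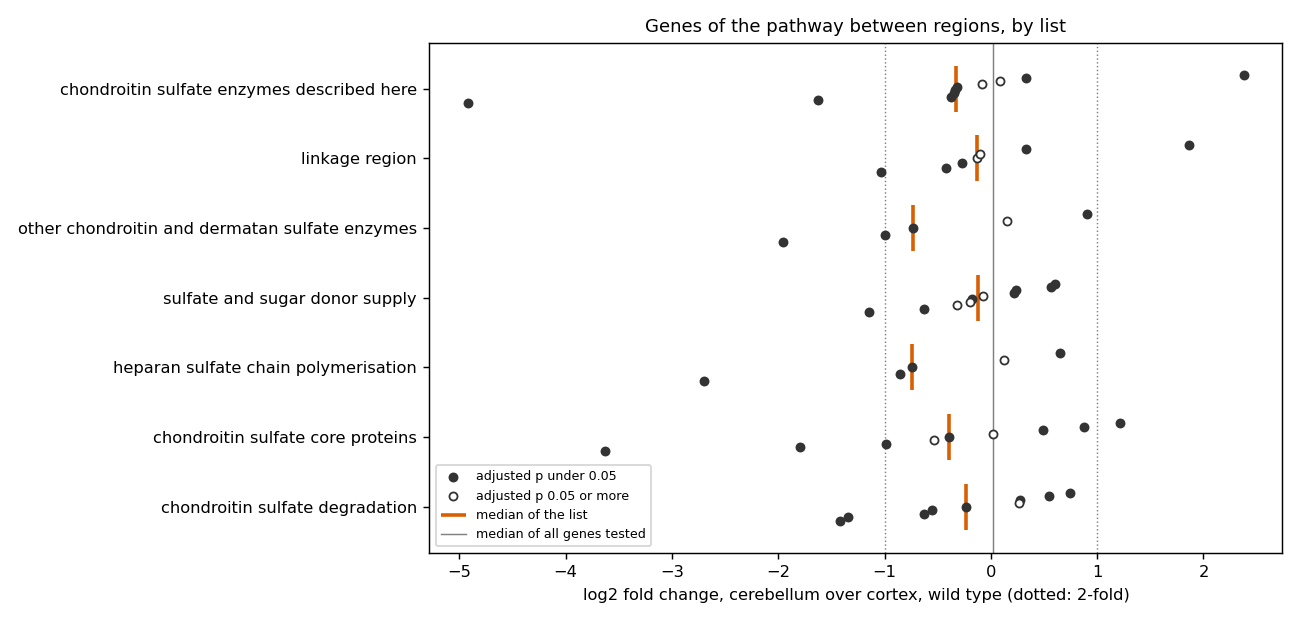
Log2 fold change, cerebellum over cortex in wild-type mice (horizontal axis), of the 10 enzyme genes and of the genes of 6 pathway lists that passed the filter. Filled points have an adjusted p under 0.05 in edgeR, orange lines are list medians, and the grey line is the median of all genes at 0.02. Points lie on both sides of that line in every list, and the 7 medians lie between -0.74 and -0.13.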

How the data were processed

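RNA from cortex and cerebellum of 4 wild-type and 4 A391T mice was analysed as 16 polyA-selected libraries. The authors aligned the reads to mm9 with STAR, and HTSeq gave the counts of each Ensembl gene without regard to strand. The deposited values are raw counts per gene and library. The authors also deposited an RPKM table, from which the gene lengths were taken. Its columns were matched to the counts, and 8 of 16 carry the name of a library of the other genotype. Reads on no single gene (from 10.2% to 13.2% on no gene and from 2.20% to 2.75% ambiguous) stayed out of totals and tests.

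The test of the counts was that of edgeR 4.0.16, run in R 4.3.3 (filterByExpr, TMM, quasi-likelihood test, Benjamini-Hochberg over all genes tested). It was checked on simulated data. The simulated counts had the same variability for every gene and no pairing by animal, so the check does not cover the spread between these libraries. Region was compared within genotype, genotype within region, and their interaction over all libraries. TPM and ratios were computed with Python 3.11.15 and scipy 1.17.1, and ratios tested with exact permutation tests. Coordinates and exon overlaps came from the NCBIM37 annotation, which held 37168 of the 37583 gene IDs. The members and lists were chosen with earlier results of these data known. All 10 enzymes are named, and of the other lists the genes past both criteria in wild-type mice, apart from an item that is not reported here. Alternatives were DESeq2 1.42.0, the exact test of edgeR, RLE size factors, library totals, 2 other filters, all libraries in 1 model, other fold criteria, the names of the RPKM table, only mice with matching names, leaving out 1 library at a time, and mouse as a replicate block. The exact test had no interaction form. Exon lengths of the annotation, and the unshared exon bases of *Chsy1*, were added after seeing the data.

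Mouse numbers follow the animal numbers in the labels, so libraries of both regions with the same number come from the same animal. Deviations from the group means had a correlation across genes of -0.10 to 0.12 within a mouse (n = 8) and of -0.17 to 0.15 between mice. Values per library differ by more than counting error (chi-square per degree of freedom from 3.08 upward), and no library was a repeat of another.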

Additional observations from a re-analysis of the deposited data

Results flagged for a closer look

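The 40 groups of 4 libraries, 10 genes by 4 groups, were each searched for a library far from the other 3 by the gap to its neighbour over the range of the group. Chance gives about 1 in 20 groups a gap past Dixon's critical value for 4 libraries, and 2 of the 40 had such a gap. *Chsy1* in wild-type cerebellum mouse 2 was at 5.27 TPM against 6.97 to 7.09 TPM in the other 3 mice, with a gap of 0.931 of the range. *Csgalnact2* in A391T cerebellum mouse 1 was at 18.01 TPM against 14.1 to 14.5 TPM, with a gap of 0.914 of the range. The latter library was also the one with *Pvalb* at 4418 TPM, and the part of this in the value was not tested. No interaction of region and genotype passed the test.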

How the results depend on the processing

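The 3 genes called between regions in each genotype were the same 3 in 20 of 21 alternatives. With the adjusted p alone the count was 8 in wild-type and 7 in A391T mice, by the construction of that criterion. On leaving out each library in turn the count was 3 throughout, and the genotype and interaction counts were 0 throughout. The names of the RPKM table moved *Chsy3*, A391T over wild type in cerebellum, from 0.08 to -1.18, without a call. Mouse as a replicate block changed no call, alone or with the names of the RPKM table (3 genes called in each genotype), nor in the interaction (0 genes). Of the fold changes under an alternative, 954 kept their side of the threshold of the adjusted p, 22 moved above it and 2 below it, and none past it changed sign. The test against a 2-fold change passed the 3 genes alone. With only the mice of matching name, 2 per group, the adjusted p was above 0.05 for *Csgalnact2* (0.41), *Chst11* (-0.30), *Chst12* (-0.34) and *Chst15* (-0.31) in wild-type mice and for *Csgalnact2* (0.44) and *Chst15* (-0.35) in A391T mice, with log2 fold changes in parentheses. With library totals it was so for *Chst11* in A391T mice (-0.26, adjusted p = 0.0531). Library totals moved the median log2 fold change of all genes from 0.02 to 0.14 in wild-type and from 0.03 to 0.16 in A391T mice.

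The ratio of *Chsy3* to *Chsy1* in A391T mice moved from -5.43 to -6.52 on the log2 scale with only matching mice. That of *Chst11* to *Chst3* crossed the threshold under the names of the RPKM table, to -0.39 in wild-type mice (exact permutation p = 0.0571) and -0.24 in A391T mice (exact permutation p = 0.0286), and the cause was not tested. With 3 against 4 libraries, 2 against 2, or 4 within-mouse differences the smallest exact p is 0.0571, 0.333 and 0.125, so those alternatives give values only. Levels and ratios depend on the assigned gene length, by more than the SD for *Chst12*, *Chst3*, *Chsy3*, *Chpf* and *Csgalnact1*, and for *Chsy1* with its unshared bases, which leaves fold changes as they are. Depth limits *Chsy3* in cerebellum, at 6 to 25 counts per library.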
